A study of Mus musculus with 4 samples.

Results

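The promoters of 10 genes for Kruppel-like factors (Klf2, Klf3, Klf4, Klf6, Klf7, Klf9, Klf10, Klf11, Klf13 and Klf16) were followed through a list of H3K4me3 HiChIP interactions in mouse bone marrow-derived macrophages (BMDMs). An interaction is a pair of 5-kb bins of the genome that were joined in the sequenced fragments more often than the authors' model predicted, and it was taken as a Klf interaction when either bin contained the start (TSS, transcription start site) of any protein-coding transcript that the basic GENCODE M21 annotation gives these genes. This gave 369 interactions of the 237102 in the list, or 0.156%, and 148313 interactions touched the promoter of any protein-coding gene. No Klf promoter bin held the TSS of another protein-coding gene.

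HiChIP joins DNA ends that lie close together in the fixed nucleus and then enriches, with an antibody, fragments that carry a chromatin mark, here the trimethylated histone H3 lysine 4 found at active promoters. The cells came from C57BL/6J mice, were differentiated for 7 days with M-CSF, and were either left untreated (basal, 2 samples) or given 20 ng/mL IL-4 for 24 h (2 samples). No transgene or gene deletion is named in the labels for any sample. The list analysed here was called on a merge of all 4 samples, so basal and IL-4 cells could not be compared, no value has a replicate error, and the sequencing depth per library is not known.

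Kruppel-like factors bind CACCC and GC boxes through zinc fingers at the C-terminus and differ in what their N-terminal parts recruit. KLF2, KLF4, KLF6 and KLF7 act mostly as activators, KLF3 is a repressor that binds the corepressor CtBP, and KLF9, KLF10, KLF11, KLF13 and KLF16 bind the corepressor Sin3A. In macrophages KLF2 is known for restraining inflammatory gene expression and KLF4 for its induction by IL-4 through STAT6.

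The promoter sequences of 8 of the 10 genes were found in the RefSeq table of GRCm38.p6, as 300 bases from 250 before the start site to 50 after it. Those of Klf2 and Klf4, which had few or no interactions, and of Klf7 and Klf3, which had the most, are shown 5′ to 3′ on the strand of the gene. Capitals mark matches, on either strand, to the GC box CCCGCCC, the KLF box CCACNCCC or the MEF2 motif, which was searched as CTA and TAG 4 bases apart.
Klf2 promoter (chr8:72318812-72319111, plus strand): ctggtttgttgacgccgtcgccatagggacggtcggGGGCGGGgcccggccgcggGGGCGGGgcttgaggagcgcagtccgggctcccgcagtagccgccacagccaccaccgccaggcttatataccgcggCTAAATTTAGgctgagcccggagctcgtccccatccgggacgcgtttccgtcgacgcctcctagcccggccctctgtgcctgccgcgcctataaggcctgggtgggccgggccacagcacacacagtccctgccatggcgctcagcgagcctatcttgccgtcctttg
Klf4 promoter (chr4:55532426-55532725, minus strand): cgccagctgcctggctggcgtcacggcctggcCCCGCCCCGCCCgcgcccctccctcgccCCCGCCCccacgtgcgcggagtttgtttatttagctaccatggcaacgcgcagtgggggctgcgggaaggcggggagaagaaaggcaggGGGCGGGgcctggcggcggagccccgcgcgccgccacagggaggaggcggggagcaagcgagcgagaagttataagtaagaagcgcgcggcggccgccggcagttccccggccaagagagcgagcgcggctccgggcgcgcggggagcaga
Klf7 promoter (chr1:64121340-64121639, minus strand): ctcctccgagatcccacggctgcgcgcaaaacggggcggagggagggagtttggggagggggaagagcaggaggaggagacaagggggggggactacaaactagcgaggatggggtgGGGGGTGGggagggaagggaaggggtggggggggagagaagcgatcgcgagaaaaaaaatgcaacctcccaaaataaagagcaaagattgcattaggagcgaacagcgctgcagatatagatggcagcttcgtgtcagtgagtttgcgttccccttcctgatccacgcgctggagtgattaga
Klf3 promoter (chr5:64803271-64803570, plus strand): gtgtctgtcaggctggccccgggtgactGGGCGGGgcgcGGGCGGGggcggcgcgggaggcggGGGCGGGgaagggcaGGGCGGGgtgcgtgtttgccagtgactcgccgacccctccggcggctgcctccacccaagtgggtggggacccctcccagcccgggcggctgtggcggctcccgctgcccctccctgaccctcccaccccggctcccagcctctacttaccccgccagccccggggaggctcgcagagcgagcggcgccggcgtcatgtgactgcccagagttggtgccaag

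GC boxes, the sites that Sp factors and Kruppel-like factors share, were matched in 5 of the 8 promoters and in 25.6% of all 32851 promoters in the table. The Klf4 and Klf3 promoters held 4 each, the Klf11 promoter 3, and the Klf2 and Klf13 promoters 2 each, and the leftmost pair in Klf4 overlapped. The KLF box was matched once in Klf7 and in 2 places in Klf13, against 17.6% of all promoters, and a KLF box and a GC box overlapped in Klf13. CCAAT was matched in Klf6, Klf9, Klf11 and Klf13, against 37.4% of all promoters. The Klf2 promoter held the single MEF2 match of the 8, 118 bases before the start site, and 3.69% of all promoters had one. The Klf9 promoter held the single AP-1 match (TGANTCA, in 7.81% of all promoters). PU.1 (GAGGAAGT, in 3.20% of all promoters), C/EBP (TTGCNNAA, 10.8%), STAT6 (searched as TTC and GAA 4 bases apart, 6.95%), EGR (CGCCCACGC, 0.612%), CRE (TGACGTCA, 1.79%) and TATAAA (13.6%) were not matched in these 8 windows. A match describes letters and is not evidence of binding.

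The partner bins with the highest ratio of observed to expected counts were searched for the same motifs. For Klf4, Klf10 and Klf13, 3 of the 5 genes whose highest ratio was at least 10, 150 bases are shown on the plus strand of mm10. These bases were picked for the most different motifs and then the most matches, with CCAAT and TATAAA left out. Capitals mark matches to the GC box, KLF box, AP-1 (TGANTCA) or C/EBP (TTGCNNAA) motif on either strand. The window within each bin was chosen for its matches, so their number is a description only.
Klf4 partner (chr4:56220382-56220531, 690 kb from the promoter bin, with a C/EBP match): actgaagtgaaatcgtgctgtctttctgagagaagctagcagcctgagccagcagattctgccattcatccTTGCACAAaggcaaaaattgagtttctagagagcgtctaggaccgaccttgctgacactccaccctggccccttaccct
Klf10 partner (chr15:38470909-38471058, 170 kb, with AP-1 matches and a GC box): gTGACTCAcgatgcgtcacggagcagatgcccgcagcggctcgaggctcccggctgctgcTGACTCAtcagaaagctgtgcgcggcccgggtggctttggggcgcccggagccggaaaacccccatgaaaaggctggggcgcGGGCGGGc
Klf13 partner (chr7:64151858-64152007, 215 kb, with C/EBP matches and a KLF box): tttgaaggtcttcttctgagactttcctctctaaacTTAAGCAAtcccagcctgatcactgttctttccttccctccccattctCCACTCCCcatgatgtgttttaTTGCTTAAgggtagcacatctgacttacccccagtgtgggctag

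The promoters fell into a group with many interactions and a group with few. Klf3 had 119 interactions, Klf7 had 97, Klf13 had 66 and Klf10 had 62, and these 4 genes held 344 of the 369 (93.2%). Klf6 and Klf11 had 9 each, Klf16 had 4, Klf4 had 2, Klf9 had 1 and Klf2 had none. The roles of the proteins did not follow this division: the activator group spanned 0 to 97 interactions and the Sin3A-binding group 1 to 66.

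Among 20720 protein-coding genes, 63.2% had at least 1 interaction, against 9 of the 10 Klf genes. At least 50 interactions were listed for 4 of the 10 Klf genes and for 3.04% of all genes. The median was 9 interactions per Klf gene and 2 over all protein-coding genes. These 10 genes were chosen with earlier results of these data known. Of 6 further Klf genes, 3 had an interaction, the median was 0.5 and none had 50 or more, so the values describe the chosen genes and not the whole family. By the number of interactions Klf3 ranked 33 among all genes, Klf7 ranked 67, Klf13 ranked 238 and Klf10 ranked 302. Neighbouring bin pairs often belong to 1 contact seen in several bins. The list grouped the 369 bin pairs into 52 clusters, 15 of which were single bin pairs, with 13 clusters for Klf7, 9 for Klf3, 7 each for Klf6 and Klf10, 6 each for Klf11 and Klf13, 2 for Klf4 and 1 each for Klf9 and Klf16.

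**Figure D1:**
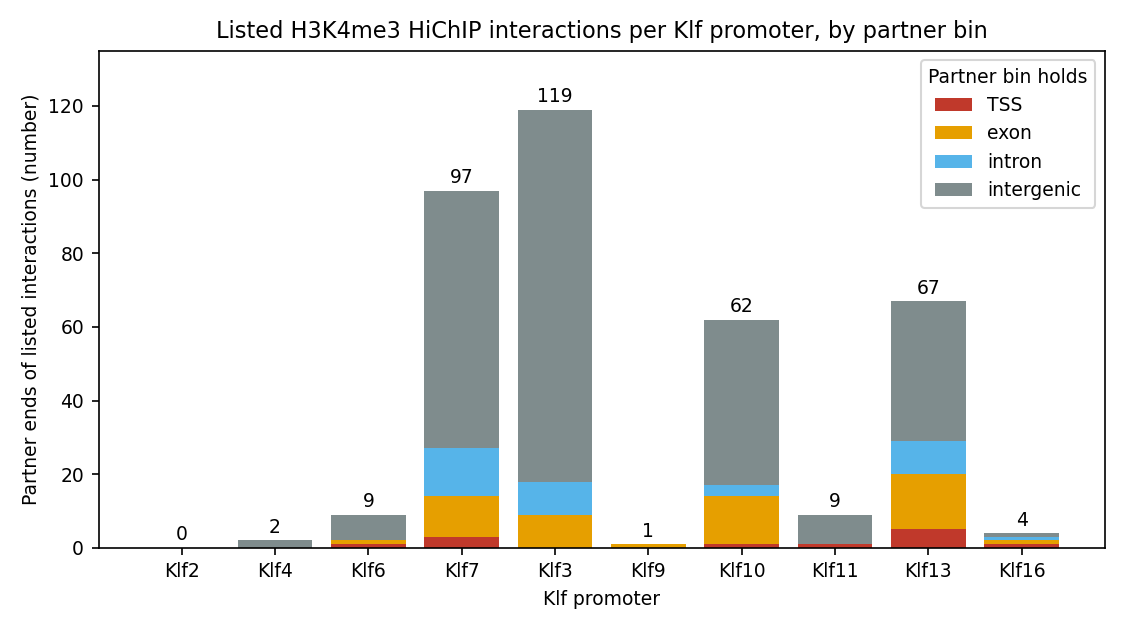
Number of partner ends of listed interactions at each Klf promoter (vertical axis), coloured by whether the partner bin holds a protein-coding TSS, an exon, an intron or no protein-coding gene. Klf3 (119), Klf7 (97), Klf13 (67 ends of 66 interactions) and Klf10 (62) stand above the other 6 genes, which have 0 to 9, and most partner bins are intergenic.

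The Klf interactions were strong for their distance. Their ratio of observed to expected had a median of 3.85, against 2.99 over all promoter interactions, and the median observed count was 39, against 34. The distance between bins was similar, with a median of 200 kb against 190 kb. When each ratio was placed among all listed interactions of the same distance, its median percentile was 71.8 for the Klf genes and 44.3 for all promoters. A ratio of at least 10 was reached by 15 Klf interactions (4.07%) and by 0.706% of all promoter interactions. These 15 lay at 5 of the 10 genes, with 6 at Klf3, 5 at Klf7, 2 at Klf10 and 1 each at Klf4 and Klf13, and 2.69% of all genes had such an interaction. Adjoining bins count separately here, so the 15 are not independent. A ratio of at least 4 was listed for 9 Klf genes and for 42.3% of all genes. Interactions over more than 500 kb were fewer than over all promoters, 26 or 7.05% against 16.7%.

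**Figure D2:**
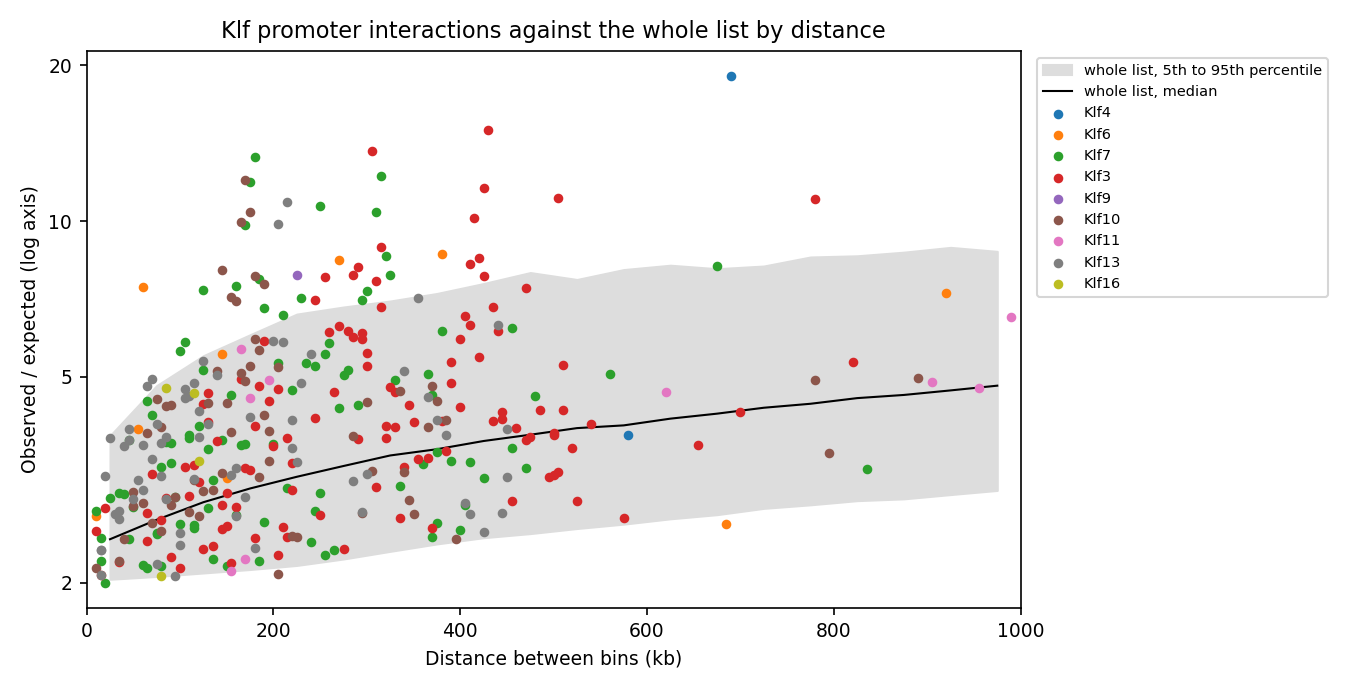
Ratio of observed to expected counts (log axis) against distance in kb for each Klf promoter interaction, coloured by gene, with the median and the 5th to 95th percentile of the whole list by distance. The highest point is Klf4 at 690 kb (19.1), and the other ratios of at least 10 belong to Klf3, Klf7, Klf10 and Klf13.

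Most partners lay upstream, that is, before the start site on the strand of the gene. Of 370 partner ends (the 2 promoter bins of Klf13 pair with each other and count once from each side) 301 were upstream, or 81.4%, against 50.5% of 182319 ends over all genes. Among the 4 genes with at least 50 interactions the imbalance was sharpest at Klf3, with 117 upstream and 2 downstream, and at Klf10, with 58 and 4. Klf13 had 47 upstream and 20 downstream, and Klf7 had 61 and 36. Of the 630 genes with at least 50 interactions, 96 (15.2%) had at least 90% of their partners on 1 side.

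Partner bins were mainly outside protein-coding genes. The partner bin overlapped no protein-coding gene at 272 of the 370 partner ends (73.5%). It held an exon at 51 (13.8%), only intron at 35 (9.46%) and a TSS at 12 (3.24%). A bin paired with both promoter bins of a gene counts once from each. Over 159206 ends of all promoter bins the corresponding shares were 32.4%, 33.0%, 20.99% and 13.7%. The number of other protein-coding genes with a TSS within 500 kb was 0 to 7 around Klf3, Klf4, Klf6, Klf7, Klf9, Klf10, Klf11 and Klf13, and 27 around Klf2 and 54 around Klf16. Whether this spacing of genes bears on the shares was not tested.

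**Figure D3:**
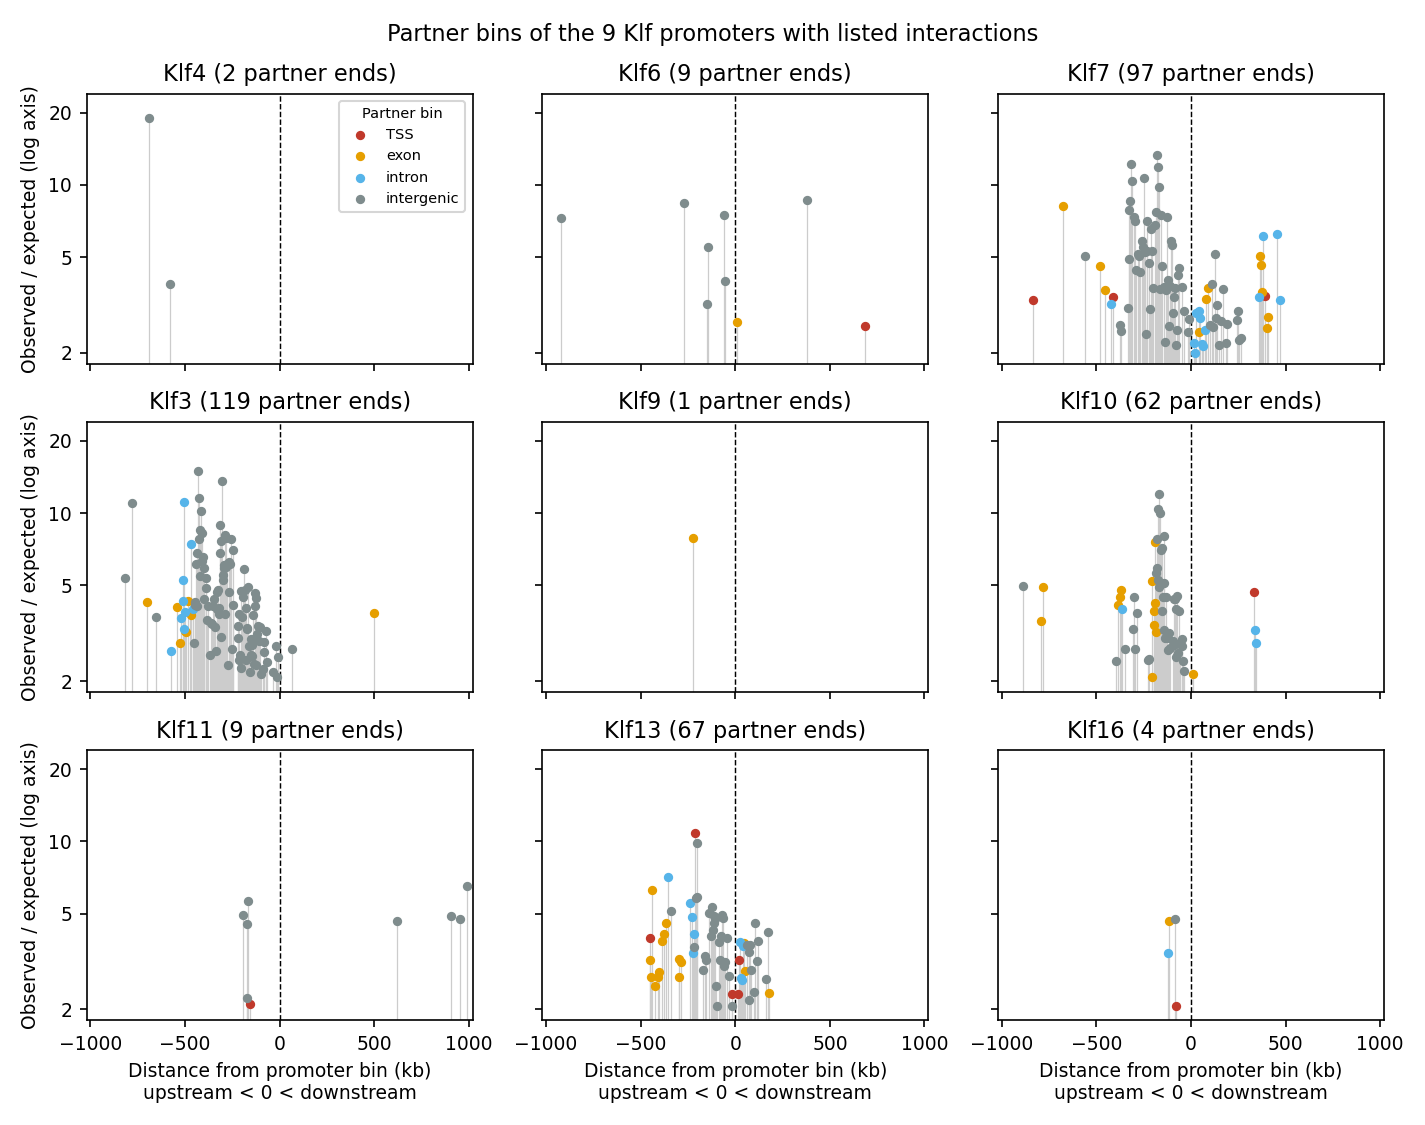
Partner bins of the 9 Klf promoters with interactions, by distance from the promoter bin in kb (upstream negative) and ratio of observed to expected (log axis), coloured by what the partner bin holds. Klf3 and Klf10 partners sit almost wholly upstream, and Klf7 partners form peaks of intergenic bins 150 to 350 kb upstream.

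Klf2 (chr8:72319033-72321656, plus strand), a factor of quiescent endothelium, lymphocytes and myeloid cells, was the member without a listed interaction. Its promoter bin, chr8:72315001-72320000, and the adjoining bins 5 kb upstream and 5 and 10 kb downstream all stood at 0. Bins a little further off were in the list, with 12 interactions for the bin 15 kb upstream and 16 for the bin 35 kb downstream, which lies in the neighbouring gene Eps15l1. The partners of that downstream bin included the promoters of B3gnt3, Fam32a, Gm10282, Plvap and Rab8a. The list holds significant bin pairs only, so a weaker contact of the Klf2 promoter would not appear in it. The promoter bin held 10 sites for MboI (GATC), the enzyme used to cut the chromatin, against a median of 12 over promoter bins, and 53.6% GC against 46.7%. Over all promoter bins 57.4% had an interaction, and among those with 6 to 10 sites 53.3% did. The effect of the number of sites on the Klf2 count was not tested.

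Klf4 (chr4:55527143-55532466, minus strand) encodes a factor of alternative macrophage activation. Its best partner, the intergenic bin chr4:56220001-56225000, holds the start of the noncoding transcript 2310081O03Rik, and none of the 411 listed interactions over the same 690 kb had a higher ratio. The observed count of 101 has an exact 95% Poisson interval of 82.3 to 123, which puts the ratio of 19.1 between 15.5 and 23.2. Such intervals cover counting error only. The other partner, at 580 kb, had a count of 22 and a ratio of 3.86, below the middle of interactions at its distance (percentile 46.2).

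The cluster of this interaction held 36 bin pairs joining chr4:55475001-55550000 with chr4:56155001-56305000. The promoter pair was the 1 of the 36 that included the promoter bin, had the highest count of the cluster and carried the authors' mark of its summit. The highest ratio of the cluster, 20.0, belonged to a pair without the promoter bin. The bin 20 kb downstream of the promoter, chr4:55510001-55515000, had 70 interactions against 2 for the promoter, with a median distance of 650 kb, and the bin 15 kb downstream had 17. The strongest interaction of the bin at 20 kb reached chr4:56360001-56365000, 850 kb away, with a count of 44 and a ratio of 24.2. The promoter bin had 6 GATC sites, and 2.57% of promoter bins had fewer, while the bin at 20 kb had 11. Site numbers varied among the other Klf promoters too. The busier Klf13 promoter bin had 5 sites and 64 interactions, the Klf7 bin 19 sites and 97 interactions, and the Klf6 bin 16 sites and 9 interactions. The effect of the number of sites on these counts was not tested.

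Klf6 (chr13:5861482-5870394, plus strand), an early response factor, had few interactions with high counts and no other protein-coding TSS within 500 kb. The bin 60 kb upstream, chr13:5800001-5805000, was observed 440 times at a ratio of 7.47, a ratio at or above 99.67% of listed interactions of that distance. The highest ratio, 8.62 (95% interval 7.01 to 10.5), came from a bin 380 kb downstream with a count of 99. A bin 270 kb upstream followed with a count of 63 and a ratio of 8.42, and the farthest, 920 kb upstream, had a count of 48 and a ratio of 7.27. The median percentile at equal distance over the 9 interactions was 91.4. The highest count, 444 at a ratio of 2.70, was to the bin with the 3′ end of Klf6 itself, 10 kb away. Pitrm1, a mitochondrial peptidase gene and the nearest protein-coding neighbour at 687 kb, was its promoter partner, with a count of 46 and a ratio of 2.60. That ratio was low for its distance, at percentile 2.65 of 415 listed interactions. Bins near the Klf6 promoter had more interactions than the promoter bin, 28 at 10 kb and 36 at 25 kb downstream.

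Klf7 (chr1:64029447-64122282, minus strand), known from the developing nervous system, had the most interactions among the activators. Its strongest partner, the bin chr1:64300001-64305000 at 180 kb upstream, holds the start of the noncoding transcript Gm28981 and had a count of 208 and a ratio of 13.3 (95% interval 11.6 to 15.2). That ratio was at or above 99.96% of listed interactions of the same distance. The 8 adjoining bins from chr1:64275001 to 64315000 summed to 862 observed against 103 expected, a ratio of 8.40. The 15 bins from chr1:64185001 to 64260000, nearer the gene, had a larger sum, 1212, at a lower ratio, 3.96. A further bin at 315 kb had a count of 60 and a ratio of 12.2. Close to the gene, the bin at 10 kb had the highest count, 277, at a ratio of 2.76.

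Klf7 was also paired with the promoters of other genes. These were Creb1, the cAMP response factor, at 410 kb with a count of 64 and a ratio of 3.42, and the bin shared by Fastkd2 and Mdh1b at 390 kb on the other side, with a count of 54 and a ratio of 3.44. Plekhm3, at 835 kb, was the farthest partner with a count of 25 and a ratio of 3.32. Among listed interactions of equal distance their ratios stood at percentiles of 39.0 (Creb1), 43.1 (Fastkd2 and Mdh1b) and 18.6 (Plekhm3).

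Klf3 (chr5:64803388-64832901, plus strand) had 2 promoter bins. The upstream bin, chr5:64800001-64805000, had 76 interactions, and the bin 10 kb into the gene, chr5:64810001-64815000, had 43. They shared 36 partner bins, 47.4% of the upstream bin's and 83.7% of the downstream bin's. Over the shared partners the ratios were close, with medians of 4.19 and 4.34, and the downstream bin had the higher ratio in 19 of 36 but the higher count in 7.

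The strongest interactions of Klf3 came from its downstream promoter bin. Its partner chr5:64380001-64385000, 430 kb upstream, holds the start of the noncoding transcript Gm43837 and had a count of 63 and a ratio of 14.98 (95% interval 11.5 to 19.2), and none of the 827 listed interactions of that distance had a higher ratio. The bin chr5:64505001-64510000, 305 kb upstream, had a count of 91 and a ratio of 13.6. Stretches of adjoining bins lay around both, and their sums pool the interactions of the 2 promoter bins. The 6 bins from chr5:64375001 had 407 observed against 48.8 expected in 11 interactions, and the 13 bins from chr5:64480001 had 813 against 134 in 22. The stretch with the largest sum, 17 bins from chr5:64620001 to 64705000, had 875 observed and a lower ratio of 3.28. The farthest partner, at 820 kb, had a count of 12 and a ratio of 5.35. The highest count, 276, was to the bin 10 kb upstream of the gene at a ratio of 2.51. No partner of Klf3 held a protein-coding TSS. The downstream partners lay at 65 kb and, in Rfc1, at 500 kb.

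Klf10 (chr15:38291463-38300706, minus strand), first described as a gene induced by TGF-beta, also had 2 promoter bins. The bin with the upstream start, chr15:38300001-38305000, had 44 interactions, the adjoining bin chr15:38295001-38300000 had 18, and 15 partners were shared, 83.3% of the smaller set and 34.1% of the larger. Both had the same best partner, chr15:38470001-38475000. From the upstream start it was observed 360 times at a ratio of 12.02 (95% interval 10.8 to 13.3), and from the adjoining bin 140 times at a ratio of 10.4. The authors' false discovery rate of the first, 6.45e-245, was the lowest among the Klf interactions.

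That bin sat in a stretch of 14 adjoining partner bins, chr15:38440001-38510000, which reached into Azin1 (antizyme inhibitor, a regulator of polyamine synthesis). Its 23 interactions summed to 1507 observed against 234 expected. The promoter of Rrm2b, a ribonucleotide reductase subunit, was a partner 335 kb downstream with a count of 28 and a ratio of 4.69. The farthest partner of Klf10, at 890 kb, had a count of 12 and a ratio of 4.97.

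Klf13 (chr7:63886351-63938915, minus strand), a factor known from T lymphocytes, had nearly all its interactions at its outer promoter. The bin chr7:63935001-63940000 had 64 and the bin chr7:63920001-63925000, 15 kb into the gene, had 3, and the pair interacted with each other with a count of 148 and a ratio of 2.31. The highest ratio, 10.9 (95% interval 8.99 to 13.1, count 115), was to the promoter of Trpm1, a cation channel of retina and melanocytes, 215 kb upstream, and a bin at 205 kb had a count of 140 and a ratio of 9.88. This was the single pair of a Klf promoter with the promoter of another protein-coding gene at a ratio of at least 10, and its percentile at equal distance was 99.5.

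Inside Klf13 itself, 8 adjoining partner bins, chr7:63885001-63925000, summed to 1594 observed counts. The highest count of Klf13, 373 at a ratio of 2.71, was to the intron bin 30 kb downstream. E030018B13Rik, whose TSS lies within this stretch, was paired at 20 kb with a count of 236 and a ratio of 3.22. Fan1, a nuclease gene of DNA crosslink repair, was the farthest partner at 450 kb, with a count of 10 and a ratio of 3.96.

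The other 3 Sin3A-binding factors had few partners. Klf9 (chr19:23141226-23168134, plus strand), a gene induced by glucocorticoids and thyroid hormone, had 1 interaction, with an exon bin of the channel gene Trpm3 at 225 kb, a count of 98 and a ratio of 7.86 (95% interval 6.38 to 9.57). The adjoining bin 5 kb into Klf9 had 11 interactions, and its best partner was the same Trpm3 bin with a count of 20 and a ratio of 6.89.

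Klf11 (chr12:24651274-24662789, plus strand), a close relative of Klf10, had low counts of 11 to 47. Its highest ratio, 6.51, was to a bin 990 kb downstream with a count of 14, whose 95% interval of 7.65 to 23.5 puts the ratio between 3.56 and 10.9. The highest count, 47 at a ratio of 5.65, was 165 kb upstream. The promoter of Taf1b, a subunit of the RNA polymerase I factor SL1, was a partner at 155 kb with a count of 17 and a ratio of 2.11. That ratio stood at percentile 5.41 at equal distance, and the authors' false discovery rate was 0.00907. Unlike at Klf4 and Klf6, the bins within 40 kb on both sides of the Klf11 promoter had no interactions.

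Klf16 (chr10:80567124-80577321, minus strand) lay in the most crowded neighbourhood, with 54 other protein-coding TSS genes within 500 kb. Its 4 partners lay 80 to 120 kb upstream in 1 cluster, with counts of 96 to 145. The highest ratio was 4.76 (95% interval 3.95 to 5.69) at 85 kb, and the highest count, 145 at a ratio of 2.07, was to the promoter of Btbd2. The ratio with Btbd2 stood at percentile 5.03 among listed interactions of equal distance. The bin 5 kb into the gene had 17 interactions, and their partners included the promoters of Arid3a, Mob3a, Tcf3 and Zbtb7a.

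**Figure D4:**
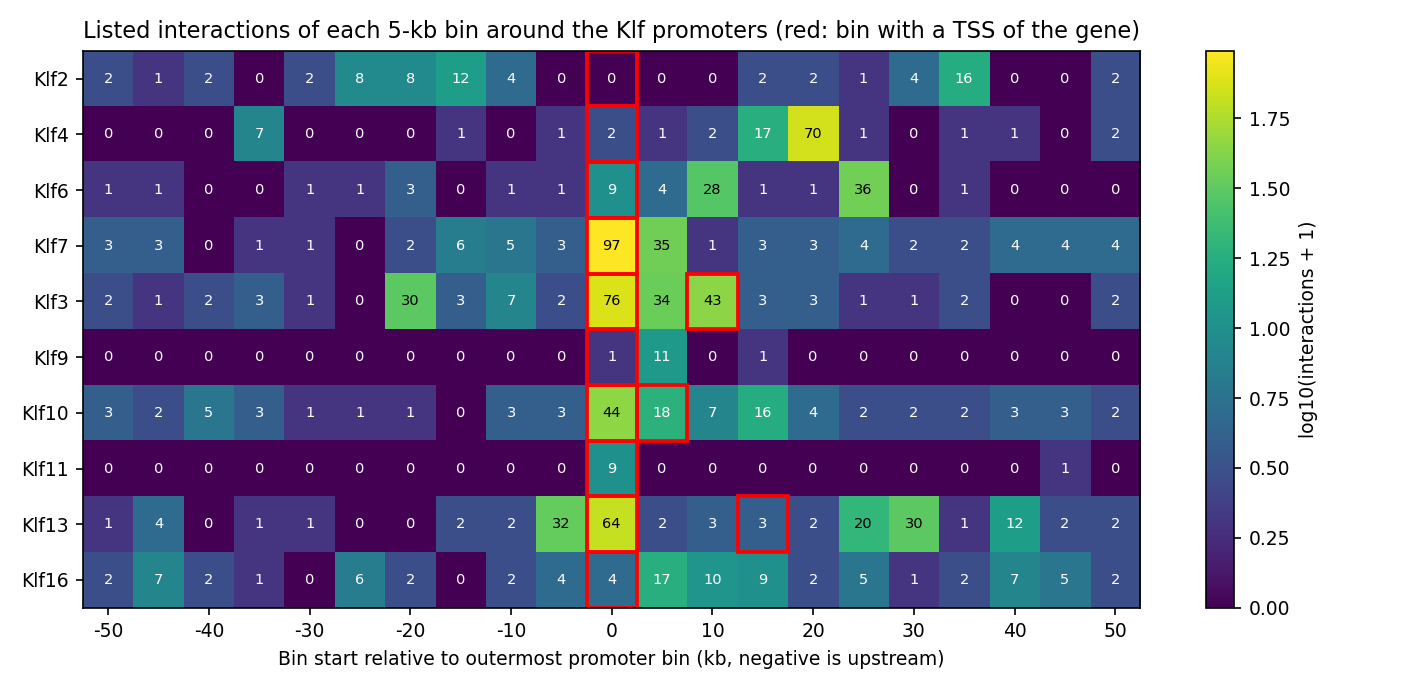
Number of listed interactions of each 5-kb bin from 50 kb upstream to 50 kb downstream of the outermost promoter bin of each Klf gene (numbers in cells, colour on a log10 scale), with promoter bins outlined in red. Klf7, Klf3, Klf10 and Klf13 peak at a promoter bin, Klf4 peaks 20 kb downstream with 70 and Klf6 25 kb downstream with 36, and the Klf2 promoter stands at 0 between bins with interactions.

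The busy Klf promoters differed in how far they shared partner bins with other protein-coding promoters. Such sharing covered 65 of 97 partner bins at Klf7 (67.0%), 34 of 47 at Klf10 (72.3%), 25 of 66 at Klf13 (37.9%) and 22 of 83 at Klf3 (26.5%), against 43.7% of 96263 partner bins over all promoters. Among the genes with few interactions, neither the 2 partners of Klf4 nor the 9 of Klf6 were shared. Klf11 shared 2 of its 9 partner bins (22.2%), Klf9 its 1 and Klf16 all 4. Klf7 shared 41 bins with Creb1 (42.3% of Klf7's partners and 39.0% of Creb1's), where the median ratio was 3.58 from Klf7 and 3.44 from Creb1 but the ratio from Klf7 was the higher in 15 of the 41. It shared 40 with the Fastkd2 and Mdh1b bin (41.2% and 48.8%), with median ratios of 3.12 from Klf7 and 3.80 from Fastkd2, and the ratio from Klf7 was the higher in 15 of the 40. At the shared bin 315 kb from Klf7 the ratio was 12.2 from Klf7 (count 60). It was 10.7 from Fastkd2 at 705 kb (count 31) and 2.31 from Creb1 at 95 kb (count 41). Ratios at unlike distances are not directly comparable, since the median ratio of the list was 2.65 at 50 to 100 kb and 4.36 at 700 to 750 kb.

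Klf3 shared its strongest partner with the receptor gene Tlr1, and other partners with Tlr1 and Tlr6. Their products pair with the receptor TLR2 at the surface of macrophages to sense bacterial lipoproteins. The overlap with Tlr1 was 6 bins, 7.23% of the partners of Klf3 and 33.3% of those of Tlr1. In all 6 the ratio and the count were higher from Klf3, with median ratios of 7.90 and 3.82. For a gene with several promoter bins, such as Klf3 with 2, the interaction with the highest ratio at each shared bin was used. At the bin 430 kb from Klf3 and 550 kb from Tlr1 the count was 63 from Klf3 and 14 from Tlr1. With Tlr6 it shared 4 bins (4.82% and 30.8%). Klf10 shared 11 bins with Azin1 (23.4% of the partners of Klf10 and 28.2% of those of Azin1). Klf13 shared 15 with Fan1 (22.7% and 65.2%).

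Over all 370 partner ends, motif matches were counted beside those in the partner bins of all promoters. KLF boxes were matched in 77.0% of Klf partner bins, in 77.3% over 158198 partner ends of all protein-coding promoters and in 67.6% of all 5-kb bins. For GC boxes the shares were 28.6%, 32.4% and 19.7%, for AP-1 81.4%, 77.9% and 78.5%, and for STAT6 73.8%, 73.2% and 78.7%. PU.1, a lineage factor of macrophages, was matched in 34.9%, 28.2% and 26.9%. For C/EBP, another lineage factor, the shares were 88.9%, 85.8% and 90.4%, and for MEF2 61.9%, 57.2% and 58.4%. EGR was matched in 0%, 0.795% and 0.340%. CRE was matched in 5.95%, 3.88% and 2.80%. The pooled shares hid differences between genes. PU.1 was matched at 37.0% of partner ends at Klf3, 39.2% at Klf7, 43.5% at Klf10 and 19.4% at Klf13. For CRE the shares in the same order were 5.04%, 3.09%, 11.3% and 2.99%. Adjoining and shared bins repeat here, so the ends are not independent and the differences were not tested. Bins around each gene that are not partners are not reported here. Whether the shares are particular to the partner bins was not tested.

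**Figure D5:**
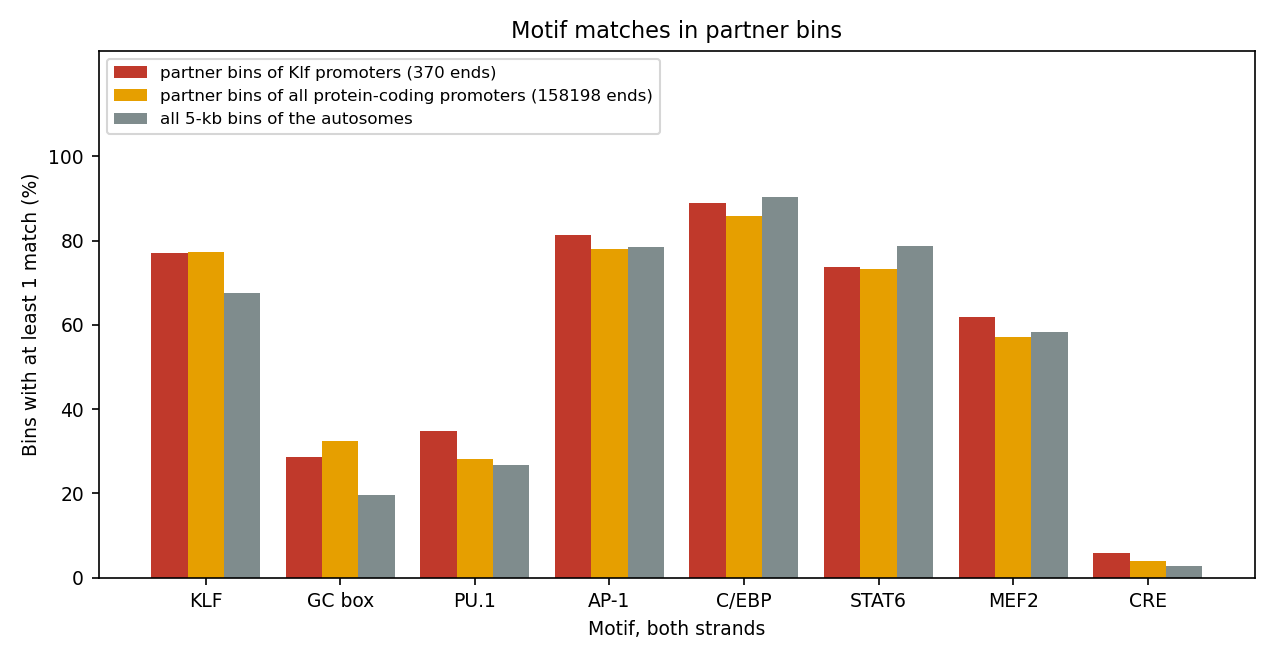
Share of bins with at least 1 match to each motif shown, on either strand (vertical axis, percent). Bars stand for the partner bins of Klf promoters, the partner bins of all protein-coding promoters, and all 5-kb bins of the autosomes. The KLF box stands at 77.0% for Klf promoters and 77.3% for all promoters, and PU.1 at 34.9% against 28.2%.

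Related genes were counted in the same way, as a description, beside 63.2% of all protein-coding genes with at least 1 interaction and a median of 2. Of 6 further Klf genes, 3 had interactions, with 6 at the erythroid gene Klf1, 3 at Klf14 and 1 at Klf17, while Klf5, Klf12 and Klf15 had none. Of 9 Sp genes, the nearest relatives, 8 had at least 1, with a median of 5 and the most, 28, at Sp3. Of 9 genes for corepressors and regulators of Klf proteins, 8 had at least 1, with a median of 20 and the most, 68, at Ctbp2, whose bin also holds Fgfr2, followed by 58 at Wwp1, a ubiquitin ligase of Klf proteins. All 6 genes of the MEK5, ERK5 and MEF2 route that drives Klf2 and Klf4 transcription had interactions, with a median of 7.5. Mapk7 had 63 and Map2k5 had 53, while Mef2c had 12, Mef2a had 3, Map3k3 had 2 and Mef2d had 1. All 10 macrophage marker genes had at least 1, with a median of 13.5, against 2 of 4 T cell, B cell, neuron and hepatocyte markers each and 3 of 4 neutrophil markers, shares of these short lists that lie near that of all genes.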

How the data were processed

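H3K4me3 HiChIP libraries of 4 samples (2 basal, 2 with IL-4) were cut with MboI. The authors aligned reads with Bowtie2 to mm10 and ran MAPS on the merged reads of the 4 libraries, with peaks of H3K4me3 ChIP-seq joined by bedtools and used as anchor regions. A bin pair is tested by MAPS only where a peak lies in 1 or both bins. For each 5000-bp bin pair the deposited list gives the observed count of paired reads, pooled over samples. It also gives the expected count of the authors' model. The false discovery rates, adjusted p-values of the authors, were deposited and all lay under 0.01. The deposited −log10 p summed over each cluster of bin pairs was not used. The authors' cluster size is a count of bin pairs, and their mark of the cluster summit was used in 1 alternative. No ratio of observed to expected in the list was below 2, and distances ended at 1 Mb.

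The planned edgeR test of basal against IL-4 was not made, since the list holds no values per sample, and no other test was run. The 10 genes and the other gene lists were chosen with earlier results of these data known. Named were all 10 genes, the highest ratio, highest count and farthest interaction of each, promoters in partner bins, and the largest stretches of Klf3 and Klf7. Further stretches, shared partners, nearby bins and values of other bins were chosen after their values were seen. A TSS had to lie within the bin. Positions are mm10, counted from 1. The list covered 19 autosomes, so X-linked Klf genes were not analysed here. Percentiles give the share of listed interactions of equal distance with a ratio no higher. Intervals are exact 95% Poisson intervals of the count. PCR reads are not independent molecules. Motif counts and promoter assignment were tested on simulated data. Python 3.11.15, pandas 2.3.3, numpy 2.4.6, scipy 1.17.1 and matplotlib 3.10.9 were used. There were 8 alternatives. Some sequences and a neighbouring gene are not reported here.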

Additional observations from a re-analysis of the deposited data

How the results depend on the processing

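The number of Klf genes with at least 1 interaction was 9 under all 8 alternatives, and Klf2 had none in any. The total of 369 fell to 170 at a ratio of at least 4 and to 48 when 1 interaction was kept per cluster. The other totals lay between 253 (false discovery rate under 1e-06) and 494 (TSS within 2500 bp of the bin). The median of 9 per gene rose to 15.5 with the TSS within 2500 bp of the bin and was 6 to 9 otherwise. Of 80 counts of single genes under an alternative, 60 were within 1.5 times the count reported and 20 were not. With 1 interaction per cluster Klf7 had 11, Klf3 had 8, Klf6 had 7, and Klf10, Klf11 and Klf13 had 6 each, so the lead of 4 genes is a lead in bin pairs. With the outermost TSS alone Klf3 had 76, and with the wider TSS window Klf13 had 103 and Klf16 had 21.

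No paired analysis was possible because the list is pooled over all samples and holds no values per replicate, and leaving out a replicate was not possible for the same reason. Absence from the list is not absence of contact, since bin pairs without significance or without a peak are not in it.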
